A study of Mus musculus with 20 samples.

Results

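Kidney tubular injury genes are genes whose RNA or protein is commonly measured to find damaged tubule cells, and 10 of them were followed here: Havcr1, Lcn2, Krt8, Krt18, Krt20, Clu, Spp1, Sox9, Vcam1 and Timp1. They were chosen by gene symbol, with earlier results of these data known. All 10 were found among the 55486 genes of both the kidney and the bone marrow count tables. The libraries came from C57BL/6 mice, described in the methods as male and female and 10 weeks old, that were injected intraperitoneally for 8 weeks with oxaliplatin at 10 mg/kg in 5% dextrose or with 5% dextrose alone. Oxaliplatin is a platinum chemotherapy drug that damages DNA. Each of the 4 groups (kidney vehicle, kidney oxaliplatin, bone marrow vehicle, bone marrow oxaliplatin) held 5 libraries, 20 in all, which the labels give as biological replicates, and bone marrow served as the comparison tissue. The methods place the collection of marrow, from femur and tibia, 6 days past the final injection and describe no time or region for the kidney sample. The labels and methods name no transgene or deletion in any group.

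The tubules of the kidney are lined by epithelial cells, and those of the proximal tubule carry out most reabsorption and take up platinum drugs from the blood. When such cells are damaged they lose their transport machinery, and surviving cells flatten, change their keratins, secrete adhesive and growth-regulating proteins and divide to close the gaps. Several of these products pass into urine or plasma, which is why KIM-1 (the protein of Havcr1) and NGAL (the protein of Lcn2) serve as clinical markers. Most of these genes are also used outside the kidney: Lcn2 is a granule gene of developing neutrophils, Vcam1 anchors blood cells to marrow stroma and macrophages, and Spp1 is made in bone.

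Values are CPM, a gene's counts relative to the size of its library, with library sizes scaled by TMM, a method that corrects for a few abundant genes taking a larger share of some libraries. Library totals ran from 24393007 to 30925430 counts in kidney and from 30660153 to 41140527 in bone marrow, so that 3 counts, taken as the floor of detection, were worth 0.09 to 0.13 CPM in kidney and 0.0668 to 0.0975 CPM in marrow. A gene was called when the adjusted p of edgeR's quasi-likelihood test was under 0.05 and the change beyond 1.5-fold. Of 19293 genes tested in kidney, 11.5% were called (1481 higher and 735 lower with oxaliplatin), and for 20.7% the vehicle and oxaliplatin libraries did not overlap. With library size alone as the scale, the median log2 fold change of all kidney genes moved by 0.13 and the share of calls that were higher went from 66.8% to 82.7%. Y-linked genes were measured in all 20 libraries, with summed levels of 77.5 to 110 CPM in kidney, and Xist, which is read from the inactive X chromosome of females, had 0 to 19 counts in kidney and 28 to 100 counts in marrow. The labels give no sex, and these values do not show female mice among the libraries. Kidney oxaliplatin library 4 stood apart through markers of urothelium, the lining of the renal pelvis, and marrow oxaliplatin libraries 3 and 4 through low neutrophil granule genes, so results that rest on them are given with and without them. The tissue labels held in the markers: the proximal tubule markers summed to between 19608 and 29130 CPM in every kidney library, and the neutrophil granule markers, at 9699 CPM or more in every marrow library, never passed 2.98 CPM in kidney.

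In kidney, Lcn2 and Spp1 rose with oxaliplatin, by 4.17-fold and 1.90-fold, and Timp1 went from 1 count in all vehicle libraries together to 46 counts in the oxaliplatin libraries. Havcr1, the gene of the best-known tubular injury marker, had about 1 CPM in both groups. Of the 10 genes, 8 had enough counts to be tested, and the 2 called, both higher, make up 25.0% of those tested against the 11.5% of all genes given above. Both had groups that did not overlap, which held for 20.7% of all tested genes. The median log2 fold change of the 8 tested genes was 0.36, against 0.02 for all genes tested. Because the genes were chosen with earlier results of these data known, these shares and medians are description and not a test. Leaving out kidney oxaliplatin library 4 left 2 genes called.

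**Figure D1:**
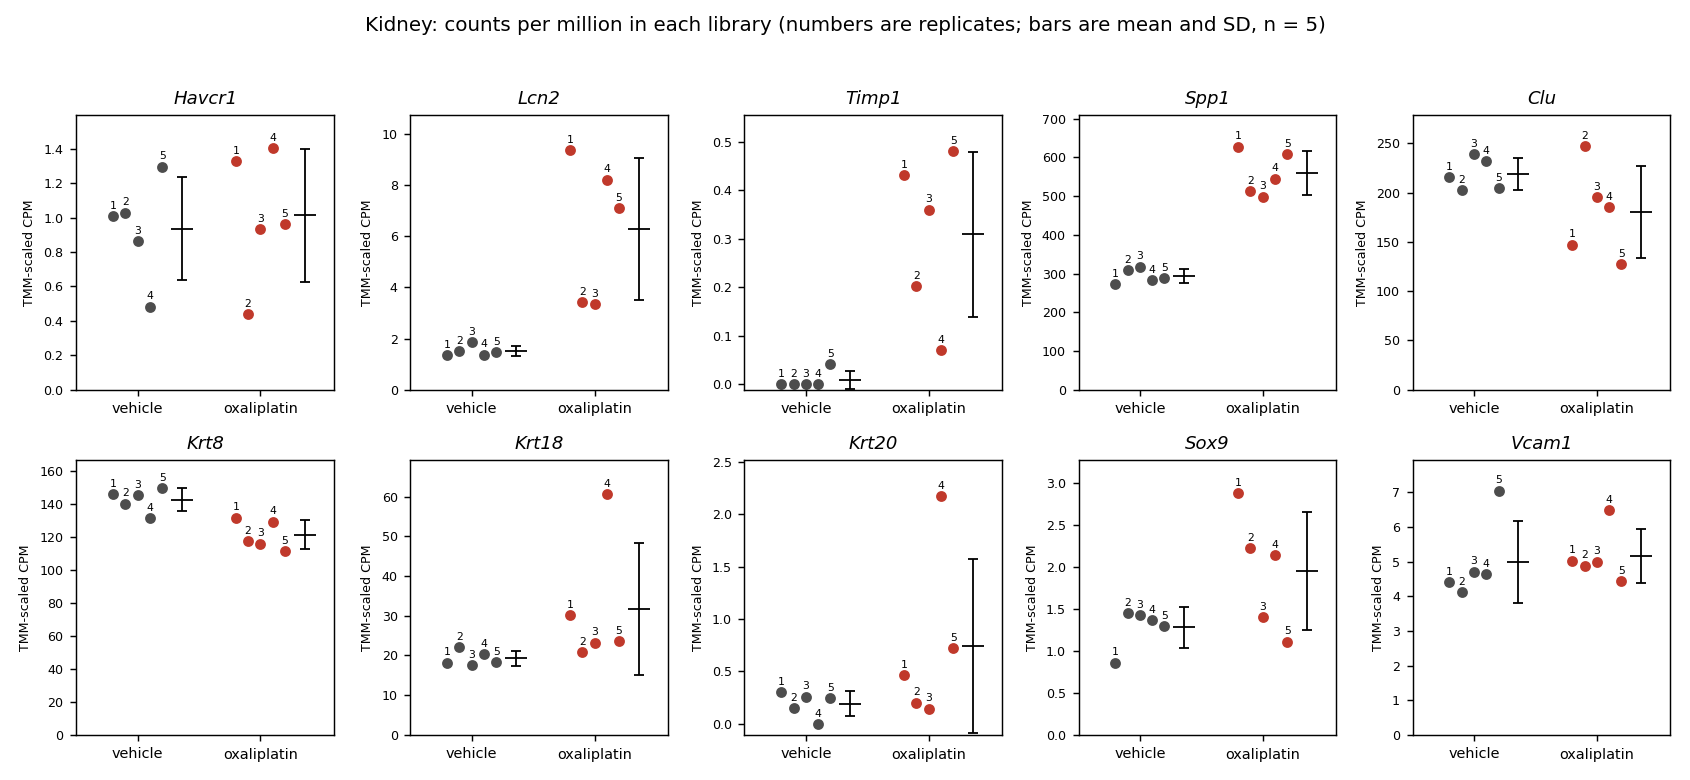
TMM-scaled CPM (vertical axes, linear, a separate scale for each gene) of the 10 genes in each of 5 vehicle and 5 oxaliplatin kidney libraries. Points are libraries with their replicate number, and the bars beside them are the mean and SD. Lcn2, Spp1 and Timp1 separate the groups, Havcr1 and Vcam1 do not, and library 4 is the highest for Krt18 and Krt20.

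The start regions of the 3 genes with more RNA in treated kidneys are shown because they lie before a listed start of that RNA. They were taken from RefSeq start sites on GRCm38.p6, which lists 7 of the 10 genes. Capitals mark matches, on either strand, to 1 of 5 letter patterns searched in the 250 bases before each start: TGANTCA for AP-1, GGANTTTCC for NF-kB, TTCNNNGAA for STAT, TTGCNNAA for C/EBP, and the TATA box as TATAAA. The Spp1 stretch is chr5:104434861-104435110 and the Timp1 stretch chrX:20869916-20870165, both on the plus strand and read 5′ to 3′ up to the base before the start. For Lcn2, whose window overlaps annotated first exons, only the 28 bases around its match are shown, chr2:32387938-32387965 on the minus strand. This stretch lies before the RefSeq start at 32387739 but inside the Lcn2 gene span given below, which begins at 32388252 on that strand.
Lcn2: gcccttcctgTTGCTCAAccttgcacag
Spp1: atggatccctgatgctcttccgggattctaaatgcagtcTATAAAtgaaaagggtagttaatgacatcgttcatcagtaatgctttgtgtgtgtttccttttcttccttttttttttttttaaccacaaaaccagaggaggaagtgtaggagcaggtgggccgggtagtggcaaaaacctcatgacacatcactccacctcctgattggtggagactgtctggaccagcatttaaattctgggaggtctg
Timp1: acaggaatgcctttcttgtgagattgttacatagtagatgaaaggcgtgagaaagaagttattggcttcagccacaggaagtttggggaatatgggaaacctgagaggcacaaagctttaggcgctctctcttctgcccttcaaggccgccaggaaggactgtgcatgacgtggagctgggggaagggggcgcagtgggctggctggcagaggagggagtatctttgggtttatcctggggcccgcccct
Among the 7 genes, Lcn2 held 1 C/EBP pattern beginning 216 bases before the start, and Spp1 and Krt20 each held 1 TATA pattern, beginning 211 and 29 bases before it. The other 4, Timp1 and Havcr1 among them, held none of the 5 patterns. Of 32851 listed start regions of the same length, 9.56% held the C/EBP pattern, 12.4% the TATA pattern, 6.75% the AP-1 pattern, 7.02% the STAT pattern and 1.07% the NF-kB pattern. A match is a match of letters alone.

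Havcr1 (ENSMUSG00000040405, chromosome 11 from 46735080 to 46779578 on the plus strand of GRCm38) encodes KIM-1, a membrane receptor for phosphatidylserine with which injured proximal tubule cells engulf dying neighbours. It was measured at 1.01, 1.03, 0.864, 0.483 and 1.30 CPM in vehicle libraries 1 to 5. In oxaliplatin libraries 1 to 5 it was measured at 1.33, 0.438, 0.935, 1.40 and 0.960 CPM. The groups overlapped over nearly their whole range, with the lowest library of all in the oxaliplatin group. Means were 0.936 ± 0.297 CPM with vehicle and 1.01 ± 0.385 CPM with oxaliplatin (SD, n = 5 libraries each). The log2 fold change was 0.11 (95% interval -0.59 to 0.80, edgeR adjusted p = 0.834), which in fold terms reaches from 0.666 to 1.75. Each value rested on 12 to 40 counts and a difference inside that interval was not detectable with this spread between libraries. Without vehicle library 4 or without oxaliplatin library 4 the estimate had the other sign, at -0.05 and -0.03.

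Havcr1 belongs to the TIM family of phosphatidylserine receptors, and its relative Timd2, a receptor for H-ferritin, was far more abundant in kidney. Timd2 fell from 53.6 to 35.6 CPM (log2 fold change -0.59, edgeR adjusted p = 0.00444), while Timd4 and Havcr2 had too few counts to be tested. The 5 genes whose levels followed Havcr1 most closely over the 10 kidney libraries, after the group means were subtracted, were Cab39, Prxl2c, Teddm2, Dnajc8 and Zkscan6, with Pearson r between 0.906 and 0.921. These are the highest of many correlations over only 10 libraries.

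Lcn2 (ENSMUSG00000026822, chromosome 2 from 32384633 to 32388252 on the minus strand) encodes NGAL, a secreted protein that binds bacterial siderophores and thereby withholds iron. Vehicle kidneys had 1.34, 1.52, 1.86, 1.37 and 1.46 CPM, and oxaliplatin kidneys had 9.37, 3.43, 3.34, 8.21 and 7.11 CPM. Every oxaliplatin library was above every vehicle library, but the treated kidneys lay in a lower pair, libraries 2 and 3, and a higher trio. The mean went from 1.51 ± 0.207 to 6.29 ± 2.77 CPM (SD, n = 5), a log2 fold change of 2.06 (SE 0.29, edgeR adjusted p = 1.3e-04). The difference is 4.17-fold with a 95% interval from 2.72 to 6.37.

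Because Lcn2 is abundant in neutrophils, the neutrophil granule markers were read beside it. In kidney none of the 10 markers had enough counts to be tested, and their summed level was 0.432 to 1.05 CPM in vehicle and 0.600 to 2.98 CPM in oxaliplatin libraries, below Lcn2 alone in each library. The most abundant of them in treated kidneys, S100a9, had a mean of 0.165 CPM with vehicle and 0.749 CPM with oxaliplatin, and S100a8 0.0149 and 0.196 CPM. Both were highest in oxaliplatin libraries 1 and 4, which were also the highest for Lcn2. Mpo and Retnlg were at 0 in all 5 vehicle kidneys and in some treated kidneys. Oxaliplatin library 5, with 7.11 CPM of Lcn2, had the lowest marker sum of the treated kidneys. The part of neutrophils in the Lcn2 difference was not tested. The NGAL receptors Slc22a17 and Lrp2 (megalin, the main endocytic receptor of the proximal tubule) had log2 fold changes of -0.02 (edgeR adjusted p = 0.872) and -0.04 (edgeR adjusted p = 0.80).

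Spp1 (ENSMUSG00000029304, chromosome 5 from 104435118 to 104441050 on the plus strand) encodes osteopontin, a secreted phosphoprotein that binds calcium salts, integrins and CD44. It had 272, 308, 318, 282 and 288 CPM in vehicle kidneys and 628, 514, 499, 545 and 608 CPM in oxaliplatin kidneys. The lowest treated kidney was well above the highest vehicle kidney, and the spread within each group was small. The mean went from 294 ± 18.8 to 559 ± 56.9 CPM (SD, n = 5). This is a log2 fold change of 0.93 (SE 0.08, edgeR adjusted p = 4.4e-07), or 1.90-fold with a 95% interval from 1.70 to 2.13. In whole kidney RNA, more cells of a type and more RNA per cell cannot be told apart. A gene model on the same strand, Gm42793, overlaps Spp1 and had at most 20 counts in any kidney library. The methods count unambiguous reads, so this number does not measure reads that fit both. How far such reads change the Spp1 counts was not tested.

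Of the receptors of osteopontin, the integrin subunit Itgb3 rose from 1.56 to 3.69 CPM (log2 fold change 1.25, edgeR adjusted p = 0.0013) and Cd44, a hyaluronan receptor, from 1.70 to 2.80 CPM (log2 fold change 0.72, edgeR adjusted p = 0.0298). Its partner Itgav had 215 and 272 CPM, a log2 difference of 0.34 that was under 1.5-fold (edgeR adjusted p = 0.0141), and Itgb1 had a log2 fold change of 0.10 (edgeR adjusted p = 0.294). Among these 4, the receptors called were the scarce ones.

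Timp1 (ENSMUSG00000001131, chromosome X from 20870166 to 20874735 on the plus strand) encodes a secreted inhibitor of matrix metalloproteinases that accumulates in scarring kidneys. Vehicle libraries 1 to 4 had 0 counts, which allows up to the floor of 3 counts each, and vehicle library 5 had 1 count. Oxaliplatin libraries 1 to 5 had 12, 6, 10, 2 and 16 counts, or 0.431, 0.202, 0.360, 0.0702 and 0.480 CPM. Every treated kidney had more Timp1 than every vehicle kidney, although library 4 was at 2 counts, under the floor. The sums of 1 and 46 counts give a ratio of 39.3 after scaling, with a counting interval from 6.71 to 1585 at 95%. Timp1 did not reach the count minimum for the test across genes, and the exact permutation test, two-sided over all 252 divisions of the 10 libraries, gave p = 0.00794, the smallest it can give. This p is not adjusted for the number of genes and restates that the groups did not overlap. The same held for 20.7% of all genes tested in kidney. With every gene that had a count kept in the fit, the edgeR adjusted p of Timp1 was 2.8e-04. Under the same setting, however, Timp1 lost its calls in marrow (edgeR adjusted p = 0.0701) and in the comparison of the tissues (0.0639). Timp1 lies within Syn1, which is read from the opposite strand and had at most 27 counts in kidney. The overlap was read from whole gene spans, not from exons, and the strand setting of the counting is not stated. Whether the pair shares reads was not tested.

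The other inhibitors of the family moved in different directions. Timp4 rose from 0.530 to 1.18 CPM (log2 fold change 1.16, edgeR adjusted p = 0.030), Timp2 had a log2 fold change of 0.45 (edgeR adjusted p = 1.4e-04) and Timp3, the most abundant of them, one of -0.51 (edgeR adjusted p = 4.9e-04), and only the first passed 1.5-fold among these 3. Mmp2, a gelatinase whose activity the inhibitors control, rose from 2.33 to 5.27 CPM (log2 fold change 1.17, edgeR adjusted p = 2.4e-04). Markers of fibroblasts and myofibroblasts were also higher in treated kidneys: 7 of 8 rose and none fell, against 11.5% of all genes tested in kidney called. Those that rose included Postn (log2 fold change 1.93), Col1a1 (1.83) and Col1a2 (1.32), all called by edgeR. The 8 markers summed to 207 to 234 CPM in vehicle and 440 to 560 CPM in oxaliplatin kidneys. The sum was highest in library 4, where Timp1 was lowest of the treated kidneys, at 2 counts. In library 1, where Spp1 was highest, it was 448 CPM. Library 5, where Timp1 was highest, had a sum of 548 CPM. Library 3, where Spp1 was lowest of the treated kidneys, had the lowest sum of them, 440 CPM. None of the 8 was at 0 in every library, and their part in the Timp1 and Spp1 differences was not tested.

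Krt8 and Krt18 encode the paired keratins of simple epithelia, which join into one filament, and they lie side by side on chromosome 15 (Krt8 from 101996698 to 102004482, minus strand, Krt18 from 102028180 to 102032027, plus strand). The pair did not move together in treated kidneys. Krt8 had 146, 140, 145, 132 and 149 CPM in vehicle kidneys and 132, 117, 116, 129 and 111 CPM in oxaliplatin kidneys. Treated kidneys were lower, with 4 of 5 below every vehicle kidney. On the log2 scale the change was -0.23 (SE 0.07, edgeR adjusted p = 0.0128), short of 1.5-fold, and with library size alone as the scale it was -0.10 (edgeR adjusted p = 0.255).

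Krt18 had 18.2, 22.1, 17.6, 20.3 and 18.3 CPM in vehicle kidneys and 30.3, 20.9, 23.3, 60.7 and 23.6 CPM in oxaliplatin kidneys. Of the treated kidneys 4 were above every vehicle kidney, and library 4 was far above the rest. Its log2 fold change of 0.72 (95% interval 0.04 to 1.39) did not pass the test (edgeR adjusted p = 0.106). Without oxaliplatin library 4 it was 0.35 with an edgeR adjusted p of 0.0227, below 1.5-fold. Per kilobase of exon, Krt8 exceeded Krt18 4.65 to 6.05 times in vehicle and 1.56 to 4.13 times in oxaliplatin kidneys, so the ratio did not overlap between the groups, with or without library 4. A processed copy, Krt8-ps, is 98.6% identical to Krt8 over 941 bases and held 2.95% to 4.78% of the counts of both loci together. The methods count uniquely mapped reads, so this share does not measure reads that fit both loci. How far such reads change the Krt8 counts was not tested. The Krt18 copy Gm5200 is 90.2% identical and had at most 7 counts.

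Krt20 (ENSMUSG00000035775, chromosome 11 from 99428403 to 99438150 on the minus strand) encodes a keratin of gut and umbrella urothelial cells that also appears in severely injured tubules. Vehicle kidneys had 8, 4, 6, 0 and 6 counts and oxaliplatin kidneys 13, 6, 4, 62 and 24 counts. Library 4 held more than all the other treated kidneys together, and without it the groups overlapped in part. The ratio of summed levels was 3.88 with a counting interval from 2.48 to 6.31, but the exact permutation test gave p = 0.111 with all 10 libraries and p = 0.222 without library 4. Krt20 was too low for the test across genes. The related keratins Krt7 and Krt19 had log2 fold changes of 0.29 (edgeR adjusted p = 0.0111, below 1.5-fold) and 1.22 (edgeR adjusted p = 0.101). Krt19 was at 37.8 CPM in library 4, and without it the treated kidneys had 7.69 CPM or more (mean 8.87) against 5.08 to 7.39 CPM (mean 6.27) in vehicle kidneys.

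**Figure D2:**
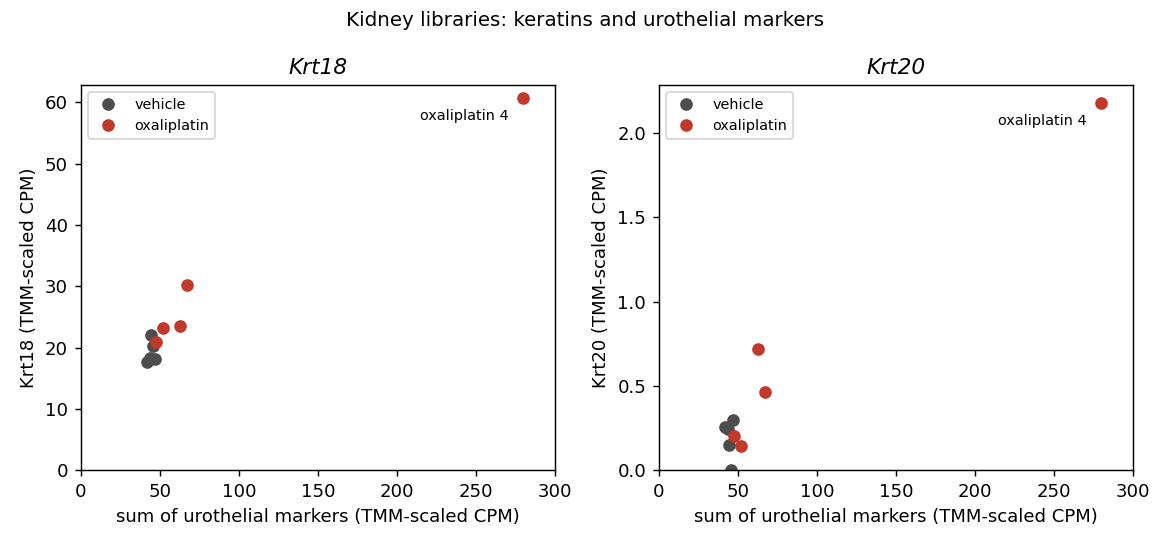
Krt18 (left) and Krt20 (right) in TMM-scaled CPM on the vertical axes against the summed level of 9 urothelial markers on the horizontal axis, all on linear scales, for 5 vehicle and 5 oxaliplatin kidney libraries. Oxaliplatin library 4 lies apart on every axis, with 280 CPM of urothelial markers, 60.7 CPM of Krt18 and 2.18 CPM of Krt20.

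The urothelial markers summed to at most 46.9 CPM in each of the vehicle kidneys, to between 47.5 and 67.5 CPM in oxaliplatin libraries 1, 2, 3 and 5, and to 280 CPM in library 4. Upk1a, a uroplakin of the bladder and pelvis lining, was at 72.9 CPM in library 4 and at 4.25 to 7.13 CPM in the other 9 kidneys. Of the 9 markers 2 were called, against 11.5% of all genes tested in kidney. Both, Upk3b and Foxq1, were higher, and none of the 9 was at 0 in any kidney. The part of urothelial RNA in the Krt18 and Krt20 values was not tested.

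Clu (ENSMUSG00000022037, chromosome 14 from 65968483 to 65981547 on the plus strand) encodes clusterin, a secreted chaperone that binds misfolded proteins and cell debris. Vehicle kidneys had 215, 202, 239, 232 and 204 CPM and oxaliplatin kidneys 147, 247, 195, 185 and 127 CPM. Treated kidneys spread more widely, with 4 below every vehicle kidney and library 2 above all of them. For Clu the log2 fold change of -0.28 (95% interval -0.61 to 0.05) did not pass the test (edgeR adjusted p = 0.193). Without library 2 it was -0.42 with an edgeR adjusted p of 0.0104, below 1.5-fold.

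Sox9 (ENSMUSG00000000567, chromosome 11 from 112782224 to 112787760 on the plus strand) encodes a transcription factor that marks tubule cells entering repair. Vehicle kidneys had 0.859, 1.45, 1.43, 1.37 and 1.30 CPM and oxaliplatin kidneys 2.87, 2.22, 1.40, 2.14 and 1.11 CPM. Libraries 1, 2 and 4 of the treated kidneys were above every vehicle kidney, and libraries 3 and 5 lay among them. For Sox9 the log2 fold change of 0.60 (95% interval 0.05 to 1.16) did not pass (edgeR adjusted p = 0.0954), but it passed without oxaliplatin library 5 (0.77, edgeR adjusted p = 0.0323) and with library size alone as the scale (0.73, edgeR adjusted p = 0.0451). Its relative Sox8 rose from 0.412 to 0.782 CPM (log2 fold change 0.92, edgeR adjusted p = 0.0483).

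Vcam1 (ENSMUSG00000027962, chromosome 3 from 116109949 to 116129688 on the minus strand) encodes an adhesion molecule that binds leukocyte integrins and is found on activated endothelium and on tubule cells that fail to recover. Vehicle kidneys had 4.40, 4.12, 4.71, 4.63 and 7.05 CPM and oxaliplatin kidneys 5.02, 4.88, 5.00, 6.49 and 4.44 CPM. The treated kidneys all lay within the vehicle range, whose upper end is library 5 alone. For Vcam1 the log2 fold change was 0.05 (95% interval -0.29 to 0.40, edgeR adjusted p = 0.838). It had the other sign without vehicle library 2 (-0.01) or oxaliplatin library 4 (-0.03). Its integrin partner Itga4 had a log2 fold change of 0.42 (edgeR adjusted p = 0.144).

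Of 30 other genes tied to injured or poorly repaired tubule cells, 28 could be tested in kidney, and 10 rose and 1 fell. Of all genes tested in kidney, 11.5% were called. The median log2 fold change was 0.62 for the list, against 0.02 for all genes tested. This list, like the others, was chosen with earlier results of these data known. C3, the central complement protein, rose most, from 10.8 to 76.0 CPM (log2 fold change 2.81, edgeR adjusted p = 3.6e-04). Gdf15, a stress-induced hormone, rose from 11.6 to 36.8 CPM (log2 fold change 1.66, edgeR adjusted p = 2.5e-04). Il34, a ligand of the macrophage receptor Csf1r, fell from 23.5 to 8.87 CPM (log2 fold change -1.41, edgeR adjusted p = 5.8e-07). Among the 22 receptors, partners and relatives of the 10 genes, 19 were tested, 5 rose (Itgb3, Mmp2, Timp4, Sox8 and Cd44) and 1 fell (Timd2). Their median log2 fold change was 0.34, and the same 11.5% and 0.02 of all genes stand beside these values.

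Of 15 proximal tubule markers, 4 were called lower and none higher, against 11.5% of all genes tested in kidney called in either direction. Their median log2 fold change was -0.18, and 6 of the 15 had a fitted change above 0. Those called lower were Slc7a13 (log2 fold change -1.51), the urate transporter Slc22a12 (-1.10), the organic anion transporter Slc22a6 (-0.996) and Miox (-0.60), which begins inositol breakdown, all by edgeR. Others had an edgeR adjusted p under 0.05 but stayed below 1.5-fold. Of these, Slc5a12 (log2 fold change 0.42), Cubn (0.32) and Slc13a1 (0.25) were higher, and Ggt1 (-0.56), Hnf4a (-0.36) and Slc34a1 (-0.28) were lower. Among the other cell types, 4 of 5 podocyte markers and 3 of 6 endothelial markers rose, and 2 of 8 tested macrophage markers rose while 5 fell. The endothelial sum was 290 to 314 CPM in vehicle and 361 to 590 CPM in oxaliplatin kidneys. The part of endothelium in the Vcam1 values was not tested. The macrophage sum was 118 to 149 CPM in vehicle and 73.0 to 90.9 CPM in oxaliplatin kidneys. Csf1r alone had means of 80.6 and 43.6 CPM, so the sum follows it closely. The 2 that rose were Lyz2 (log2 fold change 0.82) and Mrc1 (0.83), by edgeR. The part of macrophages in the Lcn2, Spp1 and Timp1 differences was not tested.

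Levels per kilobase of exon place the genes on one scale. In vehicle kidneys Spp1 was highest at 178 ± 11.4 CPM per kilobase, followed by Krt8 at 72.7 ± 3.56 and Clu at 63.6 ± 4.75, which did not differ in every mouse. Krt18 came next at 13.4 ± 1.30. Lcn2 (0.576 ± 0.0789), Vcam1 (0.562 ± 0.133), Havcr1 (0.405 ± 0.129) and Sox9 (0.309 ± 0.0586) formed a low group in which neighbours in the order did not differ in every mouse (SD, n = 5). Krt20 and Timp1 were lowest, at 0.0989 ± 0.0619 and 0.00912 ± 0.0204. In vehicle marrow the order was another one: Lcn2 led at 642 ± 52.7 CPM per kilobase, Spp1 (44.3 ± 13.5), Vcam1 (43.3 ± 5.02) and Clu (35.8 ± 6.71) followed with neighbours not separated in every mouse, and Krt20 was last at 0.00674 ± 0.0151.

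In bone marrow, Havcr1 and Krt18 fell and Clu and Timp1 rose, while Lcn2, which had the largest fold change of the 8 genes tested in kidney, did not pass the test. Of the 10 genes 9 were tested and 4 called, or 44.4% against 23.3% of the 22363 genes tested there. Groups that did not overlap were found for 2 of the 9, Havcr1 and Clu, against 24.9% of all tested genes. The median log2 fold change was 0.17 for the 9 genes and -0.04 for all. As in kidney, these comparisons are description and not a test. Scaling by library size alone moved the median of all marrow genes by 0.15 and the share of calls that were higher from 49.6% to 63.4%. Without oxaliplatin libraries 3 and 4, an alternative chosen after seeing the data, 3 genes were called, since Timp1 was lost.

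**Figure D3:**
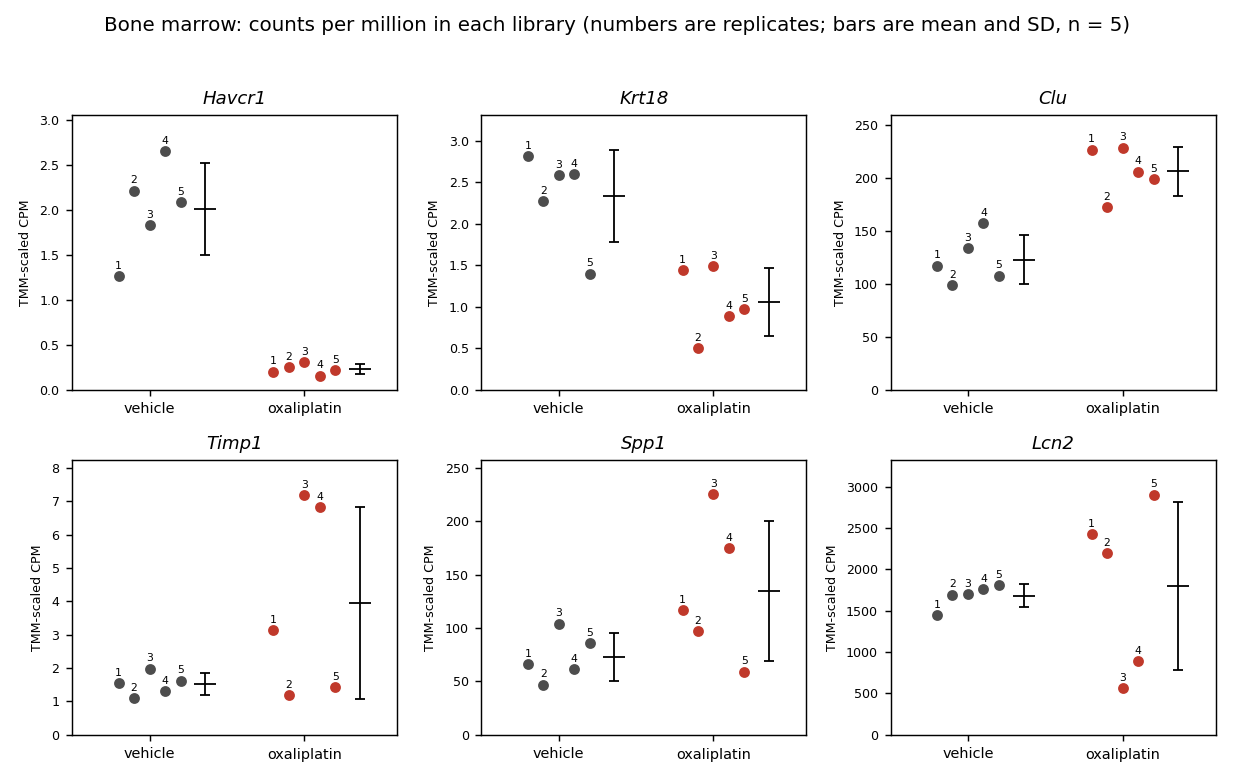
TMM-scaled CPM (vertical axes, linear, a separate scale for each gene) of 6 of the genes in each of 5 vehicle and 5 oxaliplatin bone marrow libraries. Points are libraries with their replicate number, and the bars beside them are the mean and SD. Havcr1 and Clu separate the groups, and libraries 3 and 4 are the highest for Timp1 and Spp1 and the lowest for Lcn2.

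Havcr1 had 1.27, 2.21, 1.83, 2.65 and 2.08 CPM in vehicle marrow and 0.202, 0.251, 0.303, 0.156 and 0.216 CPM in oxaliplatin marrow. Every treated marrow was far below every vehicle marrow, at 7 to 13 counts. The log2 fold change was -3.14 (SE 0.30, edgeR adjusted p = 6.2e-06), or 8.80-fold lower, and -3.15 without libraries 3 and 4. Its relative Timd4, a receptor of tissue macrophages, fell from 6.04 to 0.798 CPM (log2 fold change -2.94, edgeR adjusted p = 4.3e-04), whereas 5 of 9 macrophage markers rose in marrow and none fell, among them C1qa (log2 fold change 1.37) and Mrc1 (1.47) by edgeR. In the blood system Havcr1 is known as TIM-1 of activated T and B lymphocytes, and 4 of 6 lymphocyte markers, all of B cells, fell alongside it. Of all genes tested in marrow, 23.3% were called. The lymphocyte sum was 162 to 290 CPM in vehicle and 44.2 to 60.7 CPM in oxaliplatin marrow. All 6 erythroid markers fell as well, from sums of at least 28940 CPM to sums of at most 9880 CPM, and the part of either cell type in the Havcr1 difference was not tested.

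Krt18 had 2.82, 2.27, 2.58, 2.59 and 1.40 CPM in vehicle marrow and 1.44, 0.501, 1.49, 0.890 and 0.970 CPM in oxaliplatin marrow. The groups overlapped only through vehicle library 5. Krt18 fell by 1.13 on the log2 scale (SE 0.31, edgeR adjusted p = 0.0122), and with a covariate for Y-linked genes the log2 fold change was -0.97 (edgeR adjusted p = 0.0603). Krt8, its partner, had at most 20 counts in any marrow library and a log2 fold change of 0.17 (95% interval -0.84 to 1.17, edgeR adjusted p = 0.822).

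Clu had 117, 99.3, 134, 158 and 108 CPM in vehicle marrow and 227, 173, 229, 206 and 199 CPM in oxaliplatin marrow. All treated marrows were above all vehicle marrows. Clu rose by 0.75 on the log2 scale (SE 0.13, edgeR adjusted p = 6.3e-04), or 1.68-fold, and 0.70 without libraries 3 and 4. Clusterin is also carried by platelets, and all 6 megakaryocyte markers rose in marrow, from sums of 1073 to 1668 CPM to sums of 1985 to 3034 CPM. Of all genes tested in marrow, 23.3% were called. The part of megakaryocytes in the Clu difference was not tested.

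Timp1 had 1.55, 1.11, 1.99, 1.31 and 1.62 CPM in vehicle marrow and 3.14, 1.19, 7.18, 6.81 and 1.43 CPM in oxaliplatin marrow. Libraries 3 and 4 were far above the others, and libraries 2 and 5 lay within the vehicle range. Its log2 fold change of 1.39 (SE 0.47) passed with an edgeR adjusted p of 0.0367, and it was 0.34 without libraries 3 and 4 (edgeR adjusted p = 0.483). It also missed the threshold without vehicle library 1, 2, 3, 4 or 5, or oxaliplatin library 3 or 4, each left out alone, with edgeR adjusted p from 0.0505 to 0.10. Its relatives Timp4, from 1.08 to 30.3 CPM (log2 fold change 4.80, edgeR adjusted p = 8.7e-05), Timp3 (1.36, edgeR adjusted p = 8.5e-06) and Timp2 (0.64, edgeR adjusted p = 0.00363) rose, as did Mmp2 (3.11, edgeR adjusted p = 1.0e-04).

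Spp1 had 66.2, 47.1, 104, 61.9 and 85.9 CPM in vehicle marrow and 117, 97.4, 225, 175 and 59.3 CPM in oxaliplatin marrow. Libraries 3 and 4 were again the highest, and library 5 lay among the vehicle marrows. Its log2 fold change of 0.88 missed the threshold (edgeR adjusted p = 0.0606), passed without oxaliplatin library 5 (1.12, edgeR adjusted p = 0.00891) or vehicle library 3 (1.05, edgeR adjusted p = 0.0436), and was 0.32 without oxaliplatin libraries 3 and 4 (edgeR adjusted p = 0.491). Spp1 also passed in DESeq2 (0.93, adjusted p = 0.0113), with library size alone (1.04, edgeR adjusted p = 0.0305), with at least 10 counts in every library (0.87, edgeR adjusted p = 0.0498) and with the Y-linked covariate (1.41, edgeR adjusted p = 4.0e-04). The summed Y-linked level was lowest in oxaliplatin library 5, at 99.1 CPM, the treated marrow with the least Spp1. The setting with that covariate is thus not separate from the one without library 5. Markers of osteoblasts and osteoclasts, cells that also make osteopontin, summed to 187 to 302 CPM in vehicle and 117 to 396 CPM in oxaliplatin marrow, with library 3 highest and library 5 lowest, and their part was not tested.

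Lcn2 had 1451, 1696, 1704, 1759 and 1809 CPM in vehicle marrow and 2428, 2200, 566, 894 and 2903 CPM in oxaliplatin marrow. Treated marrows fell on both sides of the vehicle range, with libraries 3 and 4 below it and libraries 1, 2 and 5 above it. The log2 fold change was 0.10 (95% interval -0.70 to 0.90, edgeR adjusted p = 0.872), and 0.58 without libraries 3 and 4 (edgeR adjusted p = 0.00125). The sum of the granule markers was also lowest in these libraries, at 9699 CPM in library 3 and 11584 CPM in library 4 against 22050 to 27729 CPM in the other treated marrows, and none of the 10 was called. Mpo and Elane, granule genes of early precursors, went the other way, with Mpo at 2101 CPM in library 3 and 1807 CPM in library 4 against 1297 to 1419 CPM in the other treated marrows, and Elane highest in library 3 at 826 CPM. The part of neutrophils in the Lcn2 values was not tested. Vcam1, from 339 to 458 CPM in vehicle marrow, had a log2 fold change of 0.10 (95% interval -0.30 to 0.49, edgeR adjusted p = 0.727), and 0.35 without libraries 3 and 4 (edgeR adjusted p = 0.0199). Its partner Itga4, part of the integrin VLA-4, fell from 421 to 185 CPM (log2 fold change -1.19, edgeR adjusted p = 1.3e-06). Sox9, at 16 to 52 counts in each marrow, had a log2 fold change of 0.30 (95% interval -0.50 to 1.09, edgeR adjusted p = 0.579), and Krt20 had 2 counts in all 10 marrow libraries.

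**Figure D4:**
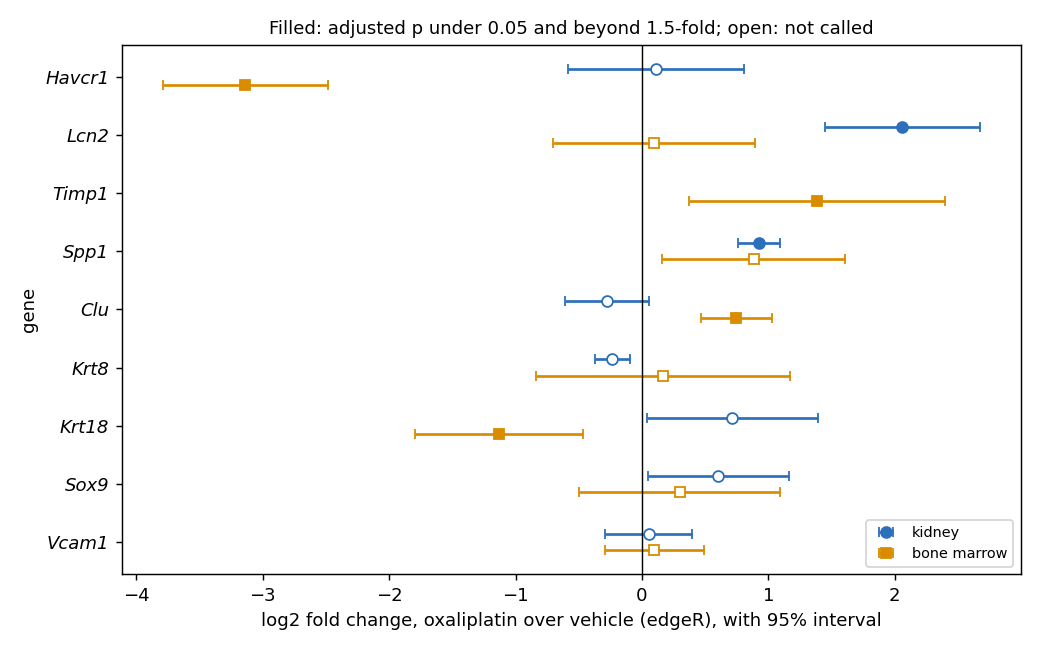
Log2 fold change of oxaliplatin over vehicle (horizontal axis) with its 95% interval for 9 genes (vertical axis) in kidney (circles) and bone marrow (squares). Filled symbols were called, and Timp1 has no kidney symbol because it was below the count minimum there. Havcr1 lies near 0 in kidney and at -3.14 in marrow, and Lcn2 lies at 2.06 in kidney and near 0 in marrow.

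Whether the response differed between the tissues was tested as the tissue by treatment interaction over all 20 libraries. It passed for 5 of the 9 genes tested, against 30.1% of the 24321 genes in that fit. Timp1, 1 of the 5, was below the count minimum in kidney and met that of the joint fit through its marrow counts. It is therefore set aside from this share, which leaves 4 genes that passed. Havcr1 had the lowest adjusted p, with a kidney change above the marrow change by 3.18 on the log2 scale (SE 0.46, edgeR adjusted p = 1.7e-05). Lcn2 (1.93, SE 0.52, edgeR adjusted p = 0.00745) and Krt18 (1.78, SE 0.39, edgeR adjusted p = 0.0014) also changed more upward in kidney, and Clu changed more upward in marrow (-1.08, SE 0.21, edgeR adjusted p = 3.8e-04). Without kidney library 4 and marrow libraries 3 and 4, chosen after seeing the data, these 4 differences were 3.12, 1.38, 1.61 and -0.96, and all passed by edgeR. Timp1 passed narrowly (3.32, SE 1.26, edgeR adjusted p = 0.049), on a vehicle kidney level of 1 count, so its size depends on how the fit treats low counts, and with each library left out in turn its edgeR adjusted p ran from 0.0218 to 0.0968. Spp1 gave -0.03 (95% interval -0.80 to 0.73, edgeR adjusted p = 0.974), Vcam1 -0.09 (-0.58 to 0.39), Sox9 0.25 (-0.71 to 1.21) and Krt8 -0.44 (-1.11 to 0.23). None of these 4 passed, and the intervals do not show equal responses.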

How the data were processed

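RNA was measured in 20 libraries, 5 for each tissue and treatment, which the labels call biological replicates. The authors deposited raw counts per gene, with no normalization. Their methods name SMARTer libraries, STAR alignment to Ensembl release 101, counts of unambiguous uniquely mapped reads from Partek Flow, and DESeq2 as their test. The submitters' processing notes also list Subread, featureCounts and Salmon, and the labels describe ribosomal RNA removal with random primers, so chemistry and counter are given in more than 1 way. Strand use is not stated, so overlapping genes on opposite strands may share counts.

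Each table's 55774 lines gave 55486 genes once repeats of an identifier, all with equal counts, and 1 incomplete line were dropped. Per tissue, the counts were filtered by filterByExpr (minimum count 10), scaled by TMM and tested with edgeR 4.0.16 (R 4.3.3), robust quasi-likelihood, two-sided, treatment as the only term, with Benjamini-Hochberg adjustment over all genes tested. Calls needed an adjusted p under 0.05 and more than 1.5-fold, and the interaction an adjusted p under 0.05. Intervals are at 95%, and floors and counting intervals cover counting error only. Positions and exon lengths came from GENCODE M21 (GRCm38), copies from BLAST 2.17.0, figures from matplotlib 3.10.9. The code was tested on simulated data. Between libraries of a group the chi-square per degree of freedom was at least 7.27, so none repeated another.

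The genes and lists were chosen with earlier results of these data known. All 10 members are named. From each list up to 4 called genes are named, those changing most with a mean log2 CPM no lower than 0, besides known partners. Further genes (the rest of the called lists, the proximal tubule markers below 1.5-fold, Mpo, Retnlg, Elane, S100a8, S100a9, Upk1a, Xist, and the keratin relatives) were named after their values were seen. Alternatives were DESeq2 1.42.0, size factors, library size alone, other count filters, a replicate block, a Y-linked covariate, a 2-fold threshold and each library left out. Some single genes of these lists are not reported here.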

Additional observations from a re-analysis of the deposited data

Results flagged for a closer look

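Over 61 groups of 5 libraries, 8 held a library whose gap to its nearest neighbour took up more than 0.71 of the group's range, a limit that chance passes in about 1 group of 20. Of these, 4 were oxaliplatin kidney library 4, in which Krt18 was 60.7 CPM (20.9 to 30.3 CPM in the other treated kidneys), Krt20 2.18 CPM (0.144 to 0.72), Vcam1 6.49 CPM (4.44 to 5.02) and the summed urothelial markers 280.0 CPM (47.5 to 67.5). Sox9 was lowest in vehicle kidney library 1, at 0.859 CPM against 1.30 to 1.45 CPM in the others. Vcam1 was highest in vehicle kidney library 5, at 7.05 CPM against 4.12 to 4.71 CPM. Timp1 at 0.0405 CPM in vehicle kidney library 5 and Krt20 at 0.065 CPM in vehicle marrow library 5 were single values of 1 and 2 counts beside libraries at 0, all under the floor.

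The change with oxaliplatin differed between kidney and bone marrow by edgeR's interaction test for 5 genes. Timp1, 1 of the 5, met the count minimum through its marrow counts alone. With every gene that had a count kept, it missed the threshold (edgeR adjusted p = 0.0639). The kidney change minus the marrow change was 3.18 on the log2 scale for Havcr1 (adjusted p = 1.7e-05), 1.93 for Lcn2 (adjusted p = 0.00745), 1.78 for Krt18 (adjusted p = 0.0014), 3.32 for Timp1 (adjusted p = 0.049) and -1.08 for Clu (adjusted p = 3.8e-04).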

How the results depend on the processing

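With a 2-fold threshold, 1 of the 10 genes was called in kidney (Lcn2) and 941 genes in all, and in marrow 3231 genes, since the threshold itself is stricter. With at least 10 counts in every library 3 genes passed the interaction test, since fewer genes were tested. Each library left out in turn gave 2 to 3 of the 10 genes called in kidney, 3 to 5 in marrow and 4 to 5 in the interaction.

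Only genes that did not pass the test changed sign. In marrow, Lcn2 went to -0.14 with the replicate block and -0.64 with the Y-linked covariate, which also took Vcam1 to -0.15 and Krt8 to -0.28. In the interaction, Vcam1 went to 0.0666 with that covariate and, with at least 10 counts in every library, to 0.0016. Spp1 there went to 0.026 with library size alone, 0.10 with at least 10 counts in every library, 0.0759 with the replicate block and 0.63 without kidney library 4 and marrow libraries 3 and 4. With each library left out in turn, kidney Vcam1 ranged from -0.0321 to 0.21, kidney Havcr1 from -0.0522 to 0.30, marrow Lcn2 from -0.12 to 0.32, marrow Vcam1 from -0.0258 to 0.23, marrow Krt8 from -0.0698 to 0.45, and the interaction of Vcam1 from -0.22 to 0.0594 and of Spp1 from -0.26 to 0.27. Why these moved was not tested.

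Libraries that share a replicate number were not treated as pairs. Correlations of their deviations from group means ran from -0.154 to 0.228. The sample titles do not say whether kidney and marrow libraries of the same number came from the same mouse, and these correlations cannot settle it. A replicate block left 2 of the 10 genes called in kidney, 3 in marrow, where Timp1 missed the threshold (1.07, edgeR adjusted p = 0.065), and 5 in the interaction, with 2017, 4968 and 6710 genes in all. Low counts kept Timp1 and Krt20 in kidney and Krt20 in marrow out of the test across genes. With every gene that had a count kept, Timp1 missed the threshold in marrow (edgeR adjusted p = 0.0701) and in the interaction (0.0639).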
